A study of Mus musculus with 2 samples.

Results

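Chemokines and chemokine receptors were read as a module of 36 genes, 22 ligands and 14 receptors, in single-cell RNA sequencing of mouse liver. The members were taken by gene symbol from the 33696 genes of each deposited count matrix, and all 36 were found. Both groups were liver tissue of mice, 1 library labelled SLC22A18-/- and 1 library labelled SLC22A18+/+, in other words without and with an intact gene for the transporter Slc22a18. They are called the knockout-labelled and the wild-type library here, and every pair of values is given in that order. Each label names liver tissues and covers 1 library. The sources used here do not give the strain, the age or sex of the mice, how many were pooled, or which exons were deleted.

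Chemokines are small secreted proteins that steer the movement of leukocytes, and their receptors couple to G proteins on the surface of the responding cells. CXC ligands with an ELR motif draw neutrophils through Cxcr2, interferon-induced CXC ligands draw T cells and NK cells through Cxcr3, and many CC ligands draw monocytes, T cells or dendritic cells. In the liver, chemokines made by sinusoidal endothelium, macrophages and stellate cells are known to place leukocytes along the sinusoids, while Ackr3 is an atypical receptor that takes up Cxcl12 and Cxcl11.

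Several ligands share promoter elements for inflammatory and interferon signals, which is why the following promoters are shown. Each runs from 250 bases before the start of the gene to 50 bases after it, on the gene's own strand, 5′ to 3′, from RefSeq on GRCm38.p6. Capitals mark matches on either strand to a kB motif (GGG, any 3 bases, then TTCC) or to an interferon-stimulated response element (TTTC, any 2 bases, then TTTC). Cxcl1 and Cxcl2 are neighbouring neutrophil attractants, and Cxcl9 and Cxcl10 are neighbouring ligands of Cxcr3 that had the same leading class of cells.
Cxcl1, chr5:90890995-90891294, plus strand: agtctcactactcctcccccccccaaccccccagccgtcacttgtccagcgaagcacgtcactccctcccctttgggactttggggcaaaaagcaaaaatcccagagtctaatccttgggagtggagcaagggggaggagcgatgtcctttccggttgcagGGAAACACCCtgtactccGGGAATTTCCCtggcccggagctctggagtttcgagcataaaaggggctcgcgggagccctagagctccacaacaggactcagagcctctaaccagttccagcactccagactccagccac
Cxcl2, chr5:90903649-90903948, plus strand: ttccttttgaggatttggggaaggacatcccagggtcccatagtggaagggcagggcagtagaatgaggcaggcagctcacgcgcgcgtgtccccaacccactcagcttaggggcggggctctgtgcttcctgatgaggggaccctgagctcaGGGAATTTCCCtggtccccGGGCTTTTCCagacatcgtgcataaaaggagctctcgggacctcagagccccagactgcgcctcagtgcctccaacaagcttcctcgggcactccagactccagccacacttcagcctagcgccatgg
Cxcl9, chr5:92328030-92328329, minus strand: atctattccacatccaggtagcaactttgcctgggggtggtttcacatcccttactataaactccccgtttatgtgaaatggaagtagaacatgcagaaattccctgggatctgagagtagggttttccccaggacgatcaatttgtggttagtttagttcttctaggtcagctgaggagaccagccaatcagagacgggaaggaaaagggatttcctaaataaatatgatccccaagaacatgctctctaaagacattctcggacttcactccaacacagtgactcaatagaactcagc
Cxcl10, chr5:92348840-92349139, minus strand: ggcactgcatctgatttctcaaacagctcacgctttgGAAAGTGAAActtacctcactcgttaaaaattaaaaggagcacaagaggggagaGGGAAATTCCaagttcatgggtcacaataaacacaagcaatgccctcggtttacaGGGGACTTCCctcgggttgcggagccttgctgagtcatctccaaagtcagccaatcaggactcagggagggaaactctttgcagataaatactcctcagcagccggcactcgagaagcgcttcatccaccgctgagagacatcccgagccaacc

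The promoter table held 30 promoters for 28 of the 36 members. The kB motif was found in 6 of those members, Cxcl1, Cxcl2, Cxcl10, Ccl9, Ccr3 and Ccr6, and in 5.56% of all 32851 promoters of 300 bases. In Cxcl1 the matches began 89, 71 and 70 bases before the start, and in Cxcl2 97, 96 and 78 bases before it; matches that begin 1 base apart overlap on opposite strands. In Cxcl10 the kB motif began 159 and 104 bases before the start and the interferon element 213 bases before it. That interferon element was found in Cxcl10 and Cxcl14 among the members and in 3.44% of all promoters. The STAT binding element known as GAS (TTC, any 3 bases, then GAA) was found in Ccl17, Ccr6 and Cxcl14 and in 8.3% of all promoters. Neither the kB nor the interferon motif occurred in the window shown for Cxcl9. Ligand genes often share a chromosome, with Cxcl1, Cxcl2, Cxcl9, Cxcl10, Cxcl11 and Cxcl13 on chromosome 5 and 9 ligands on chromosome 11 (GRCm38). Cxcl16 lies apart from the other chromosome 11 ligands, starting at base 70453983 against 82035571 for Ccl2, the nearest. Of the 14 receptors, 8 lie on chromosome 9.

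After filtering, 11154 knockout-labelled and 12002 wild-type cells were kept, with medians of 5866 and 5344.5 UMIs (unique molecular identifiers, counted transcripts) per cell, and 38 cell barcodes occurred in both libraries. Slc22a18, the targeted gene, was detected in both, at 53.2 counts per 1000000 UMIs of the class (CPM) in knockout-labelled hepatocytes (95% exact Poisson interval 50.4 to 56.0) and 57.3 CPM (54.4 to 60.2) in wild-type hepatocytes. Over all kept cells it was at 21.3 CPM (20.4 to 22.3) and 24.4 CPM (23.4 to 25.4). The gap was wider in Kupffer cells, at 5.74 CPM (4.50 to 7.20) and 11.9 CPM (9.99 to 14.1), in liver endothelial cells, at 1.33 CPM (0.898 to 1.90) and 3.28 CPM (2.61 to 4.07), and in cholangiocytes, at 8.38 CPM (3.83 to 15.9) and 39.7 CPM (27.8 to 54.9). The knockout-labelled value was the lower one in each named class except neutrophils and plasmacytoid dendritic cells. Slc22a18 RNA was thus present in both libraries, and as the deleted part is not known here, 3′ counts cannot check the labels. With 1 library per genotype there was no replicate and no test. All intervals are 95%, exact and cover counting error only, so genotype, animal and preparation cannot be told apart. Clusters were made without any chemokine or receptor gene and named by marker genes. Each class name stands for cells that carry those markers (Kupffer-like, monocyte-like and so on), and 14.1% and 15.4% of the cells stayed unnamed. In total 13 classes were named, and 9 of them, those that reached 100 cells in both libraries, were compared.

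The first question was which classes send the ligands. Among the 9 compared classes, 32 of the 36 members had the same leading class, the class with the highest CPM, in both libraries. The exceptions were Cxcl16, Cxcr3, Cxcr6 and Ackr3, each led by a different class in the 2 libraries.

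**Figure D1:**
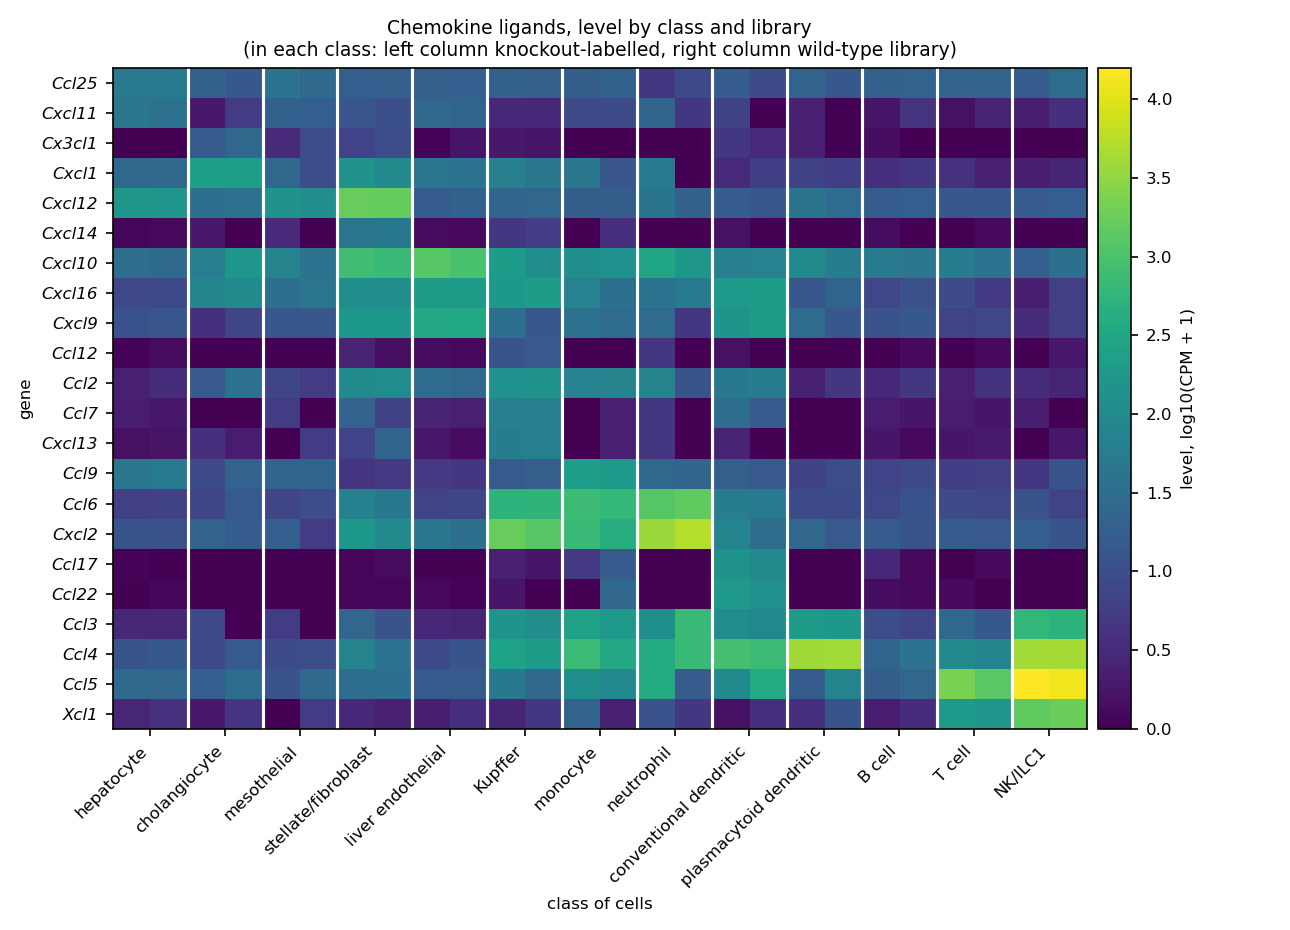
Level of the 22 ligands (rows, ordered by leading class) in 13 classes of cells (columns), as log10(CPM + 1). In each class the left column is the knockout-labelled and the right column the wild-type library. Cxcl9 and Cxcl10 are brightest in liver endothelial cells, Cxcl12 in stellate cells and fibroblasts, Cxcl2 in neutrophils and Kupffer cells, and Ccl5 and Xcl1 in NK cells and ILC1.

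Sinusoidal endothelium led the interferon-induced ligands. Cxcl10 was at 1279 CPM (1264 to 1294) and 992 CPM (979 to 1004) in liver endothelial cells, which held 67.2% and 69.3% of its UMIs. Stellate cells and fibroblasts followed at 804 and 675 CPM. In that class the 12 liver endothelial markers summed to 6748 and 7166 CPM, against 16008 and 16043 CPM in endothelial cells. Their part in the Cxcl10 level there was not tested. Cxcl9, the other main ligand of Cxcr3, was at 345 and 331 CPM in endothelial cells and at 147 and 197 CPM in conventional dendritic cells. Of the dendritic Cxcl9 UMIs, 5 cells held 72.8% and 71.9%. Stellate cells and fibroblasts came second for Cxcl9 in the knockout-labelled library, at 171.5 CPM, and conventional dendritic cells in the wild-type library. A Cxcl10 UMI was found in 64.2% and 57.9% of endothelial cells thinned to 2000 UMIs (72.7% and 70.7% without thinning). Cells with fewer than 2000 UMIs were left out of thinned shares here and below, and kept in the shares without thinning. In B cells the shares were 3.68% and 4.42% (5.26% and 5.94% without thinning). Median depth was 3185 and 3366 UMIs in B cells and 8180 and 8550.5 UMIs in endothelial cells. At equal depth the endothelial shares stood far above those of B cells, which are not a known source. Cxcl11, the third Cxcr3 ligand, had another leading class, hepatocytes at 43.2 and 35.2 CPM, with endothelial cells at 25.2 and 21.7 CPM. Cxcl16, a membrane-bound ligand of Cxcr6, was spread over endothelial cells (197 and 194 CPM), conventional dendritic cells (182 and 209 CPM) and Kupffer cells (173 and 203 CPM).

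Neutrophils had the highest Cxcl2 level and Kupffer cells most of its UMIs. Neutrophils, with only 78 and 96 cells, were at 3673 and 5403 CPM, Kupffer cells at 1703 and 1277 CPM, and monocytes at 699 and 409 CPM. Kupffer cells held 21974 of 31901 and 14583 of 21192. Kupffer cells also led the monocyte attractants: Ccl2 at 130 and 141 CPM, Ccl7 at 66.0 and 63.6 CPM, and Ccl12 at 11.0 and 14.0 CPM. Cxcl13, the B cell attractant that signals through Cxcr5, was likewise highest in Kupffer cells, at 57.7 and 64.2 CPM, and had a UMI in 11.3% and 10.8% of them. Ccl6, a ligand of Ccr1, was shared by the myeloid classes at 1219.7 and 1479 CPM in neutrophils, 757 and 634 CPM in monocytes and 513 and 535 CPM in Kupffer cells. Ccl9, another Ccr1 ligand, led in monocytes at 223 and 176 CPM and came next in hepatocytes at 45.1 and 55.5 CPM. Within hepatocytes Ccl9 was uneven, with 190.2 and 182 CPM in cluster 22 (led by Sult2a2, Fabp1 and Ttc36) and 16.3 and 14.2 CPM in cluster 7 (led by Dpyd and Ppara).

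Mesenchymal and biliary cells led a second group. Cxcl12, the homeostatic ligand of Cxcr4, was at 1658 and 1587 CPM in stellate cells and fibroblasts, with a UMI in 91.3% and 93.0% of them, against 167 and 153 CPM in hepatocytes. Its level was higher in cluster 29, the Reln- and Colec11-expressing stellate type (1744 and 1682 CPM), than in cluster 21, led by Col1a1, Acta2 and Myh11 (1049 and 894 CPM). Cxcl14 followed the same class at 42.8 and 48.9 CPM. Cxcl1, a neutrophil attractant, was highest in cholangiocytes at 227 and 221 CPM. That class had 69 and 55 cells, and 5 of them held 59.0% and 81.6% of its Cxcl1 UMIs. Stellate cells and fibroblasts followed at 135 and 102 CPM. There Cxcl1 was concentrated in cluster 21 (470.5 and 395 CPM) over cluster 29 (87.5 and 61.5 CPM). Cx3cl1, the membrane-bound ligand of Cx3cr1, was the sparsest member, with 80 and 116 UMIs in all kept cells. Cholangiocytes led it at 14.9 CPM (8.51 to 24.2) and 25.3 CPM (16.1 to 38.0). Ccl25, the ligand of Ccr9, was highest in hepatocytes at 54.1 and 52.7 CPM, with 46.3% and 47.1% of its UMIs. Next came mesothelial cells in the knockout-labelled library (38.5 CPM) and NK cells and ILC1 in the wild-type library (29.0 CPM). T cells held 20.3 and 20.6 CPM, with a Ccl25 UMI in 4.51% and 4.37% of thinned T cells against 9.91% and 9.99% of thinned hepatocytes, and the part of free RNA in this was not tested.

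Lymphocytes and dendritic cells made the remaining ligands. Ccl5, a chemokine stored by cytotoxic lymphocytes, was at 15339 and 12725 CPM in NK cells and ILC1, where each cell had a UMI in both libraries, and at 2225 and 1323 CPM in T cells. In hepatocytes 11.2% and 12.2% of cells carried a Ccl5 UMI (3.58% and 4.18% after thinning). A single cell in each library held 115 of the 682 and 120 of the 621 hepatocyte Ccl5 UMIs. The part of free RNA in this was not tested. Xcl1, the ligand of Xcr1, was at 1490.1 and 1835 CPM in NK cells and ILC1, followed by T cells at 180 and 155 CPM. Ccl4 was high in both NK cells and ILC1 (4115 and 4342 CPM) and plasmacytoid dendritic cells (4007 and 4195 CPM). Ccl3 was led by NK cells and ILC1 in the knockout-labelled library (607 CPM against 124 CPM in neutrophils) and by neutrophils in the wild-type library (676 CPM against 521 CPM). Ccl17 and Ccl22, ligands of Ccr4, were mostly in conventional dendritic cells, with 88.5% and 85.6% of Ccl17 UMIs and 92.1% and 86.3% of Ccl22 UMIs. Their levels there were 135 and 93.3 CPM for Ccl17 and 186 and 131 CPM for Ccl22.

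**Figure D2:**
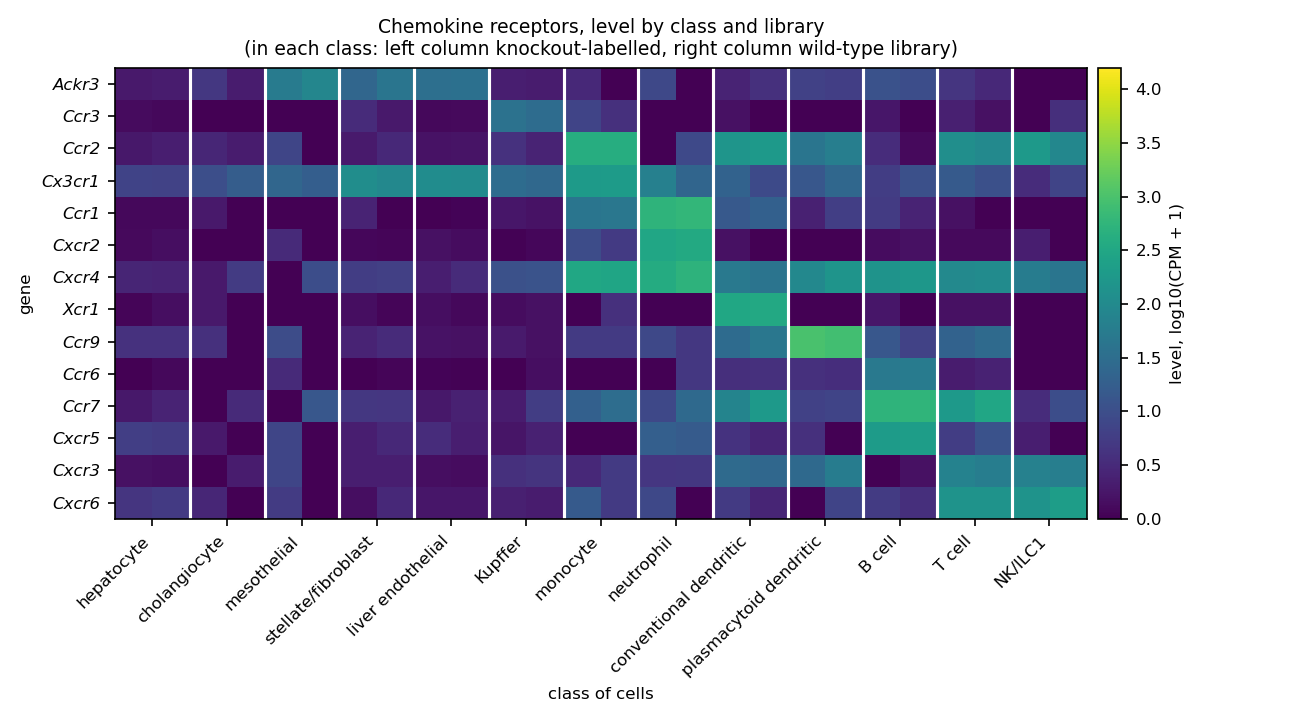
Level of the 14 receptors (rows, ordered by leading class) in 13 classes of cells (columns), as log10(CPM + 1), with the knockout-labelled library on the left and the wild-type library on the right in each class. Most receptors are bright in 1 or 2 leukocyte classes. Cx3cr1 and Ackr3 also show levels in endothelial cells and in stellate cells and fibroblasts.

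The second question was which classes could receive these signals. Neutrophils led Cxcr2, the receptor of Cxcl1 and Cxcl2, at 300.5 and 360.4 CPM, and held 69.1% and 69.6% of its UMIs. They also led Ccr1, the receptor of Ccl3, Ccl6 and Ccl9, at 548 and 612 CPM, and Cxcr4, the receptor of Cxcl12, at 389 and 526 CPM. Cxcr4 was spread over further leukocytes, with 318 and 299 CPM in monocytes, 145 and 163 CPM in B cells and 94.1 and 107 CPM in T cells. Monocytes led Ccr2, the receptor of Ccl2 and Ccl7, at 406 and 411 CPM, and Cx3cr1 at 193 and 204 CPM. Ccr3, known from eosinophils as the eotaxin receptor, had Kupffer cells as leading class at 37.5 and 29.0 CPM and a UMI in 10.8% and 9.39% of them.

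B cells led the receptors of lymphoid tissue homing. Ccr7 was at 531 and 562 CPM in B cells and 178 and 308 CPM in T cells, and Cxcr5, the Cxcl13 receptor, was at 203 and 216 CPM in B cells. After thinning, a Ccr7 UMI was found in 61.4% and 63.2% of B cells (55.3% and 57.8% without thinning), against 0.108% and 0.185% of hepatocytes (0.420% and 1.11%), whose median depths were 5437 and 4944.5 UMIs. Ccr6 was also a B cell receptor here, at 49.0 and 55.5 CPM with 87.9% and 87.6% of its UMIs. T cells and NK cells shared the other receptors of this group. Cxcr3 was at 72.8 and 59.6 CPM in T cells and 70.1 and 61.5 CPM in NK cells and ILC1. Cxcr6 was at 144.5 and 141 CPM in T cells and 144 and 219 CPM in NK cells and ILC1. Among T cells both were highest in cluster 30, with Kcnq5 and Icos among its leading genes, where Cxcr6 reached 362 and 360.0 CPM and Cxcr3 112 and 110.3 CPM. Ccr7 was instead highest in cluster 27, which expressed Lef1 and Satb1, at 516 and 617 CPM against 7.04 and 11.1 CPM in cluster 30.

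Dendritic cells carried receptors that differed by subtype. Xcr1, the receptor of Xcl1 and a marker of cross-presenting dendritic cells, had 94.98% and 93.9% of its UMIs in conventional dendritic cells, at 322 and 346 CPM. Hepatocytes, by contrast, held 0.151 and 0.416 CPM. Ccr9, a gut and thymus homing receptor, was at 971 and 854 CPM in plasmacytoid dendritic cells and at 28.2 and 44.7 CPM in conventional dendritic cells.

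**Figure D3:**
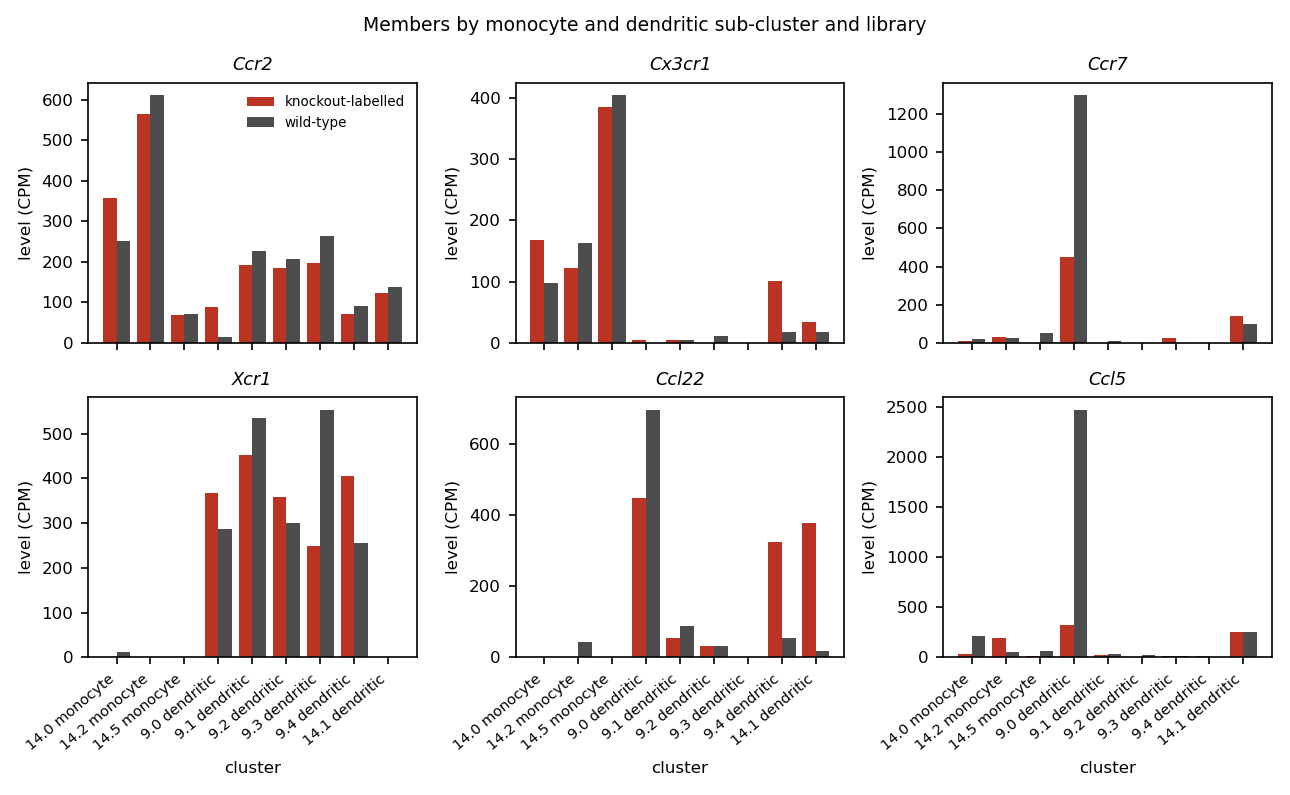
Levels (CPM) of 5 members with a subtype pattern and of Ccl5 in the monocyte and conventional dendritic sub-clusters, as bars for the knockout-labelled and the wild-type library. Ccr2 is highest in sub-cluster 14.2 and Cx3cr1 in 14.5, Xcr1 is at 0 in 14.1, and the wild-type bars of Ccr7 and Ccl5 stand out in 9.0, which holds 8 and 10 cells.

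Monocyte sub-clusters divided Ccr2 and Cx3cr1 as the classical and patrolling types are known to do. Sub-cluster 14.2, led by Chil3, Thbs1 and Ly6c2 among others, had Ccr2 at 564 and 610.4 CPM and Cx3cr1 at 122 and 162 CPM. Sub-cluster 14.5, led by Il1b, Lyz2 and Adgre4, had Ccr2 at 70.1 and 72.4 CPM and Cx3cr1 at 385 and 404 CPM. The order was the same in both libraries. Cxcr4 was also higher in 14.5 (613 and 651 CPM) than in 14.2 (258 and 239 CPM). These sub-clusters held 34 and 54 cells (14.2) and 22 and 34 cells (14.5). Among conventional dendritic cells, Xcr1 was at 453 and 535 CPM in sub-cluster 9.1 and had no UMI in sub-cluster 14.1, where 0 counts allow up to 7.72 and 7.62 CPM. Ccl22 and Ccr7 were highest in sub-cluster 9.0, led by Il12b and Apol7c among others, in both libraries: Ccl22 was at 448 and 696 CPM there and Ccr7 at 448 and 1297 CPM.

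**Figure D4:**
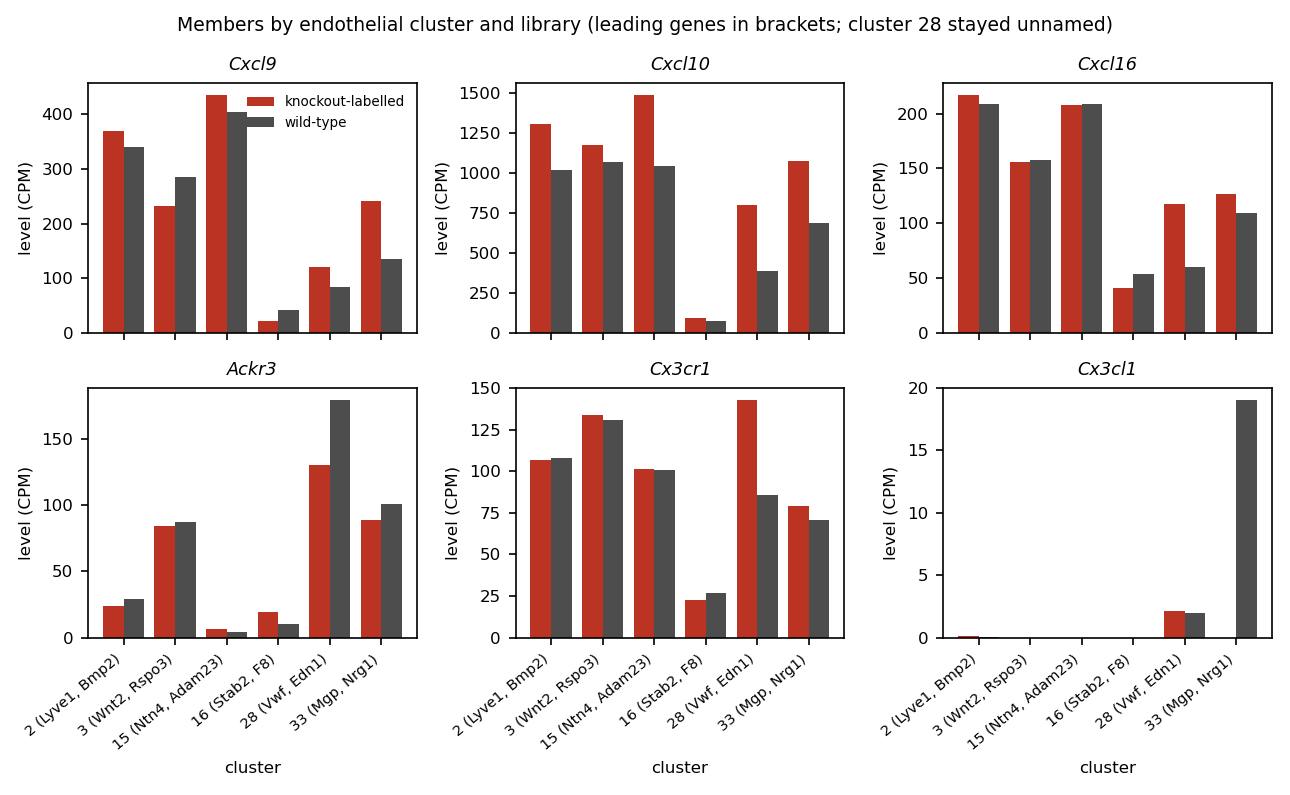
Levels (CPM) of 6 members in 6 clusters with endothelial markers, as bars for the knockout-labelled and the wild-type library, with 2 of the 10 leading genes of each cluster in brackets. Cxcl9, Cxcl10 and Cxcl16 are low in cluster 16, and Ackr3 is lowest in cluster 15 and highest in clusters 28, 33 and 3.

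Ackr3, a scavenging receptor, led in mesothelial cells at 55.7 CPM (36.4 to 81.6) and 82.3 CPM (49.6 to 129), with 26 and 19 UMIs, and differed among the endothelial clusters. It was at 84.5 and 87.3 CPM in cluster 3, led by Wnt2 and Rspo3, which are known from the pericentral sinusoid, and at 6.60 and 4.39 CPM in cluster 15, led by Ntn4 and Adam23. The same order appeared in both libraries, with the main sinusoidal cluster 2 between them at 23.9 and 29.1 CPM. Cxcl9 ran the other way, at 232 and 285 CPM in cluster 3 and 436 and 404 CPM in cluster 15. Cxcl10 showed no such order, with 1172 and 1068 CPM in cluster 3 and 1487 and 1046 CPM in cluster 15. Cx3cr1, a receptor best known from leukocytes, was found in every endothelial cluster, at 107 and 108 CPM in cluster 2. Overall endothelial Cx3cr1 was 108 and 106 CPM, with a UMI in 16.2% and 15.5% of thinned cells (38.2% and 38.6% without thinning), against 1.23% and 1.52% of hepatocytes (4.62% and 4.45%). Stellate cells and fibroblasts had 113 and 91.7 CPM of Cx3cr1, and Kupffer cells 29.1 and 25.6 CPM. In endothelial cells the 12 monocyte markers summed to 130.4 and 128 CPM and the 12 Kupffer markers to 506 and 491 CPM. All were detected, and their part in the endothelial Cx3cr1 level was not tested. In stellate cells and fibroblasts the 12 liver endothelial markers summed to 6748 and 7166 CPM, and their part in Cx3cr1 there was not tested.

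Ligands and receptors were then set side by side for 30 known ligand and receptor pairs. Leading classes alone are given, since transcript levels do not show contact or signalling. The pair of Cxcl12 and Cxcr4 ran from stellate cells and fibroblasts to neutrophils, and that of Cxcl13 and Cxcr5 from Kupffer cells to B cells. Xcl1 in NK cells and ILC1 faced Xcr1 in conventional dendritic cells. Ccl2, Ccl7 and Ccl12 in Kupffer cells faced Ccr2 in monocytes, and Ccl25 in hepatocytes faced Ccr9 in plasmacytoid dendritic cells. Cx3cl1 in cholangiocytes faced Cx3cr1 in monocytes. For Cxcl2 and Cxcr2, neutrophils led both the ligand and the receptor in both libraries. Other genes of the family that complete pairs showed a like case: Ccl24, an eotaxin outside the member list, was highest in Kupffer cells at 791 and 575 CPM, the class that led its receptor Ccr3.

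The third question was whether members differed between the libraries within a class. A member and class pair counted as measurable with at least 50 UMIs in both libraries together, a filter that one library alone can satisfy, which left 127 of 324 pairs and 35 of the 36 members. A pair was called when the CPM ratio of the knockout-labelled to the wild-type library was at least 2 or at most its inverse, its interval excluded 1 and at least 5% of the cells of the higher library had a UMI. This is a rule of size and not a test. Most members were close: 104 of the 127 pairs lay within 1.5-fold, 72 ratios were above 1 and 55 below, and the median log2 ratio was 0.054.

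By this rule 8 pairs were higher in the knockout-labelled library (6.30% of member pairs, against a background of 0.641% of the 75354 pairs of any gene and class). A further 3 were lower (2.36%, against a background of 0.345%). The shares of member pairs exceeded those backgrounds, but 4 of the 11 calls fell in conventional dendritic cells, where 2.82% and 1.08% of all genes were called higher and lower. The list of chemokines was chosen with earlier results of these data known, so the difference is a description.

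**Figure D5:**
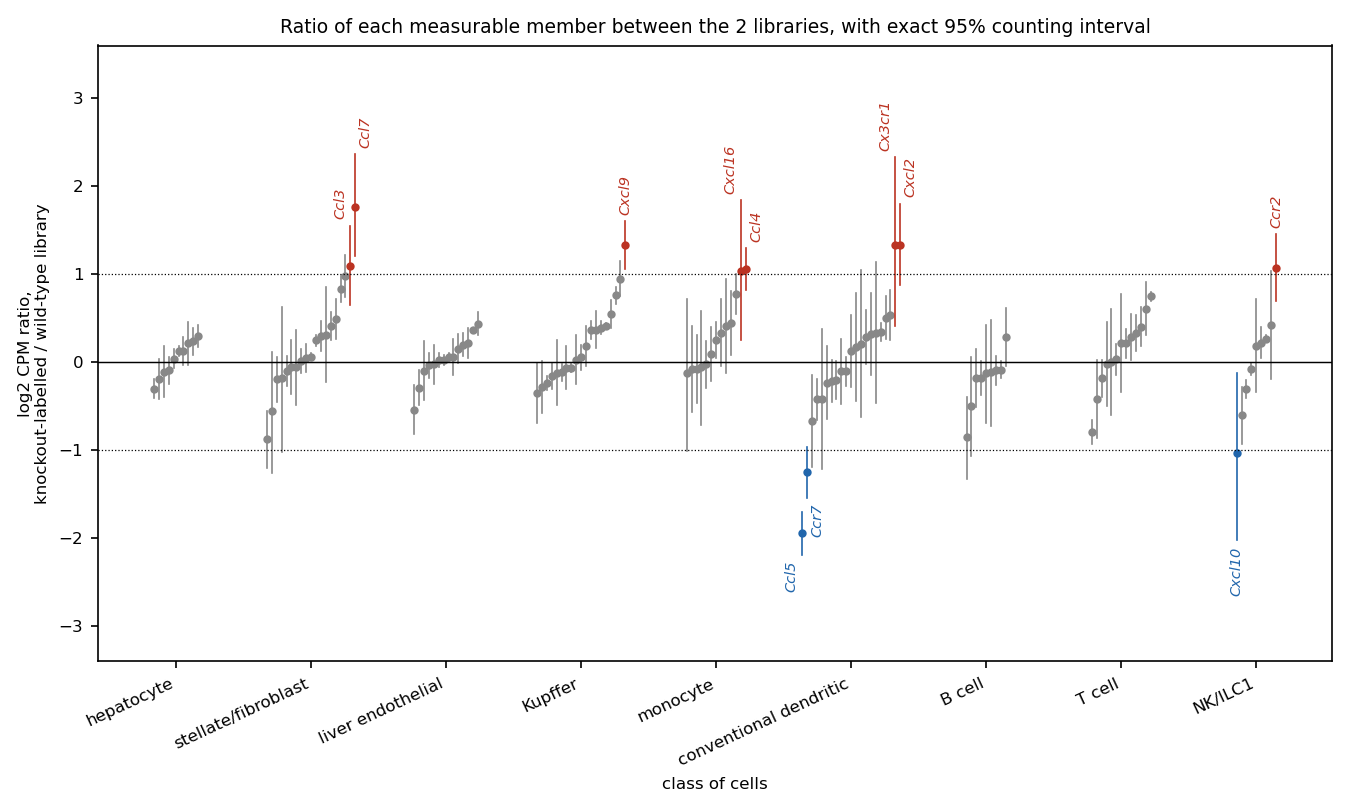
CPM ratio of each measurable member between the libraries, on a log2 axis, for the 9 compared classes; points are members ordered by ratio, vertical lines are exact 95% counting intervals, and dotted lines mark a 2-fold difference. Red and blue names mark the 8 pairs called higher and the 3 called lower. Hepatocytes, liver endothelial cells, B cells and T cells hold no called member.

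Kupffer cells had 1 called member of 19, Cxcl9. It was at 33.6 CPM (434 UMIs) and 13.4 CPM (153 UMIs), a ratio of 2.51 (2.08 to 3.04). In this class 0.121% of genes were called higher and 0.131% lower. The share of Kupffer cells with a Cxcl9 UMI differed little, 6.34% and 5.73%, and the 5 cells with the most Cxcl9 UMIs held 61.8% and 41.8% of them. Without the cell with the most Cxcl9 UMIs in each library the pair was still called. The class stood at 9.76% of the endothelial level, within the range set as possible free RNA, and endothelial markers in Kupffer cells summed to 1151 and 1040 CPM with all 12 detected; their part in the result was not tested. Other Kupffer ligands leaned the same way under the fold of 2, with ratios of 1.69 (1.58 to 1.81) for Cxcl10, 1.46 (1.31 to 1.63) for Cxcl1 and 1.33 (1.31 to 1.36) for Cxcl2. The monocyte attractants did not: Ccl2 had a ratio of 0.923 (0.862 to 0.989), Ccl7 of 1.04 (0.939 to 1.15) and Ccl12 of 0.785 (0.622 to 0.991).

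NK cells and ILC1 had 2 called members of 9. Ccr2, which lets NK cells follow Ccl2, was at 180 CPM (146 UMIs) and 85.3 CPM (97 UMIs), a ratio of 2.11 (1.62 to 2.75), against 0.309% of genes called higher in the class. A Ccr2 UMI was found in 33.6% and 22.8% of these cells (19.7% and 12.3% after thinning), and no cell held more than 9 UMIs. The thinned share in hepatocytes was 0.289% and 0.296%. Cxcl10 was lower, with 14 and 40 UMIs, 17.2 and 35.2 CPM and a ratio of 0.490 (0.246 to 0.920), against 0.855% of genes called lower. Of the 40 wild-type UMIs 23 came from 1 cell, and both levels were under 10% of the endothelial level. Without the cell with the most Cxcl10 UMIs in each library the log2 ratio was 0.11, so the direction turned. The ligands that define this class moved little. Ccl5 had a ratio of 1.21 (1.18 to 1.23), Ccl4 of 0.948 (0.907 to 0.990) and Xcl1 of 0.812 (0.756 to 0.872), while Cxcr6 had a ratio of 0.658 (0.523 to 0.822).

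Conventional dendritic cells had 4 called members of 21 measurable ones, with 127 and 121 cells. Ccr7, which guides maturing dendritic cells to lymph nodes, was at 77.7 CPM (146 UMIs) and 185 CPM (331 UMIs), a ratio of 0.420 (0.344 to 0.512). Ccl5 was at 97.9 and 376 CPM, a ratio of 0.260 (0.220 to 0.307). Both differences sat in sub-cluster 9.0 with its 8 and 10 cells, where Ccr7 had 90 and 285 UMIs and Ccl5 64 and 544 UMIs. With each library clustered alone the class had 84 knockout-labelled cells, under the minimum, and neither gene could be called. In the other dendritic sub-cluster with many of these UMIs, 14.1, Ccl5 was at 252 and 252 CPM and Ccr7 at 139 and 102 CPM. The share of dendritic cells with a Ccr7 UMI was 8.66% and 10.7%, and 5 cells held 95.9% and 71.9% of the Ccr7 UMIs. Cxcl2 was higher, at 78.8 and 31.3 CPM with a ratio of 2.52 (1.84 to 3.49), and so was Cx3cr1, at 19.7 and 7.82 CPM with a ratio of 2.52 (1.33 to 5.04). The call ended in some of the other settings for Cxcl2 (lowest ratio 1.29) and Cx3cr1 (lowest ratio 1.34). Cxcl2, Cx3cr1 and Ccl5 were all under 10% of their level in the leading class. The 12 Kupffer markers summed to 513 and 398 CPM in dendritic cells, all detected in both libraries, and their part in the Cxcl2 and Cx3cr1 ratios was not tested.

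Monocytes had 2 called members of 13, with 132 and 185 cells. Ccl4 was at 722 CPM (347 UMIs) and 347 CPM (252 UMIs), a ratio of 2.08 (1.77 to 2.46), and Cxcl16 was at 70.7 CPM (34 UMIs) and 34.4 CPM (25 UMIs), a ratio of 2.06 (1.19 to 3.59). In this class 0.733% of all genes were called higher and 0.568% lower. Few cells carried the difference. The cell with the most Ccl4 UMIs held 32.0% and 24.2% of them, and with each cell weighted equally the log2 ratios were -0.079 for Ccl4 and -0.10 for Cxcl16. Neutrophil markers summed to 458 and 5971 CPM in monocytes, with 2 and 1 of 12 at 0, and their part was not tested. The receptors that mark monocytes were close, with a ratio of 0.986 (0.819 to 1.18) for Ccr2 and 0.950 (0.725 to 1.24) for Cx3cr1.

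Stellate cells and fibroblasts had 2 called members of 19. Ccl7 was at 19.8 CPM (97 UMIs) and 5.79 CPM (36 UMIs), a ratio of 3.41 (2.30 to 5.15), and Ccl3 was at 23.0 CPM (113 UMIs) and 10.8 CPM (67 UMIs), a ratio of 2.13 (1.56 to 2.93). The background was 0.454% of genes called higher and 0.387% lower. The Ccl7 difference lay in cluster 29, with 78 and 17 UMIs, while cluster 21 had 19 and 19, and in other settings of filter and clustering the ratio fell to 1.59, below the fold of the rule. Ccl3 was at 3.41% of its level in the leading class, and its call depended on the clustering: with the libraries clustered alone its log2 ratio was -1.31. Kupffer markers summed to 3474 and 2691 CPM in this class, with all 12 detected, beside both genes, and their part was not tested. Cxcl12, which leads here, had a ratio of 1.04 (1.01 to 1.08). Ackr3 was at 23.2 and 42.5 CPM, a ratio of 0.546 (0.435 to 0.683), which did not reach the fold of the rule. Ackr3 was called lower with at most 10% mitochondrial UMIs, with doublet calls kept and at resolution 1.5. The same held with each library clustered alone, with chemokine genes allowed in clustering and at a fold of 1.5. The remaining settings gave no call for Ackr3.

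The other 4 classes had no called member. In T cells, where 1.24% and 0.132% of all genes were called higher and lower, Ccl5 had a ratio of 1.68 (1.62 to 1.74) and Ccr7 of 0.576 (0.523 to 0.634). In this class the 12 NK and ILC1 markers summed to 1269 and 872 CPM and the 12 Kupffer markers to 476 and 336 CPM, all detected, and their part in the Ccl5 ratio was not tested. The T cell clusters contributed unequally. Cluster 23, led by Gzma and Nkg7 among others, held 83 and 27 cells and 3036 and 168 Ccl5 UMIs, and cluster 27 had Ccl5 at 3013 and 1750.4 CPM. Ccr7 within cluster 27 was closer, at 516 and 617 CPM, and this cluster held 189 and 286 of the 859 and 872 T cells. With the same cluster weights in both libraries, the log2 ratio in T cells was 0.908 for Ccl5 and -0.343 for Ccr7. Without them it was 0.750 and -0.795, and the cause was not tested. In B cells, where 0.120% and 0.199% of genes were called, Ccr7 had a ratio of 0.944 (0.881 to 1.01) and Cxcr5 of 0.939 (0.839 to 1.05). In hepatocytes, with 0.429% and 0.190% of genes called, the 2 members with the most UMIs were close, with a ratio of 1.09 (1.05 to 1.14) for Cxcl12 and 1.03 (0.953 to 1.11) for Ccl25. In liver endothelial cells, with 0.0876% and 0.0584% of genes called, Cxcl10 had a ratio of 1.29 (1.27 to 1.31) and Cxcl9 of 1.04 (1.01 to 1.07).

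Classes under 100 cells were not compared by the rule and are given as values. In neutrophils Ccl3 was at 124 CPM (35 UMIs) and 676 CPM (180 UMIs), a ratio of 0.183 (0.124 to 0.264), and 1 wild-type cell held 62 of the 180. Cxcl2 had a ratio of 0.680 (0.627 to 0.737) in the same cells, and Cxcr2 of 0.834 (0.615 to 1.13). Neutrophil Ccl5 was at 108 and 4 UMIs, but 102 of the 108 came from 1 cell. The neutrophil sub-clusters differed in size, with 28 and 8 cells in 11.1 and 0 and 18 in 11.2, and Kupffer markers summed to 4278 and 1295 CPM in neutrophils. In cholangiocytes Cxcl10 was at 66 and 145 UMIs, of which 1 wild-type cell held 70.

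Other genes of the family and of its signalling path were read from lists. None of 9 measurable pairs of 17 other ligands and none of 19 pairs of 9 other receptors was called in the 9 classes, against 0.641% and 0.345% of pairs of any gene. Ccl24 and Pf4 had the most UMIs among these ligands, with Kupffer ratios of 1.38 and 0.969. Among the receptors Ackr4, a scavenging receptor for homing chemokines, led in hepatocytes at 94.0 and 76.2 CPM. For 26 genes of G protein signalling, receptor desensitisation and ligand processing, 0 of 194 pairs were called higher and 1 lower, Rgs16 in hepatocytes, with 93 ratios above 1 and 101 below. Interferon-induced genes, which share their inducers with Cxcl9, Cxcl10 and Cxcl11, had 73 of 105 ratios above 1, with 3 called higher (Gbp2 and Iigp1 in dendritic cells, Rsad2 in monocytes) and 1 lower (Usp18 in dendritic cells). Their median log2 ratio was -0.16 in NK cells and ILC1 and -0.095 in B cells, with 6 genes measured in each, and between 0.13 in Kupffer cells and 0.28 in stellate cells and fibroblasts in the other compared classes. The medians over all genes measured in a class lay between -0.040 and 0.057. Dissociation and immediate early genes, which tissue handling induces, had 0 pairs called higher and 6 lower of 149, all Hspa1a or Hspa1b in B cells, T cells, NK cells and ILC1 or monocytes. Of their ratios 56 were above 1 and 93 below. Their median log2 ratio was above 0 in Kupffer cells (0.012), endothelial cells (0.030) and stellate cells and fibroblasts (0.11). It was below 0 in the other 6 classes, at -0.38 in hepatocytes, -0.32 in T cells, -0.17 in conventional dendritic cells, -0.15 in B cells, -0.12 in monocytes and -0.095 in NK cells and ILC1. Their part in the chemokine ratios was not tested.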

How the data were processed

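Per the labels' protocols, libraries came from 10x Chromium 3' chemistry, version v3. What the authors deposited is a count for each gene in each barcode, in whole UMIs without normalization. Per the file headers these matrices were written by Cell Ranger 8.0.1. The submitters' processing notes also name STAR and mm10. The libraries held 103478998 UMIs in 11741 barcodes (knockout-labelled) and 105556354 UMIs in 12796 barcodes (wild-type).

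Cells were kept with at least 500 UMIs, 300 genes and at most 20% mitochondrial UMIs. Scrublet in scanpy 1.11.5, run per library, removed 304 and 429 doublet calls (2.65% and 3.45%). Both libraries were clustered together on 2000 variable genes without any chemokine or receptor gene, with 30 components, 15 neighbours and Leiden resolution 1.0, and monocyte, neutrophil and dendritic clusters were divided again at 0.5. Clusters were named from marker lists. A cluster stayed unnamed with a median doublet score of at least 0.15, with fewer than 3 markers found in 10% of its cells, or when markers of a second class came close (0.70 of the first score, or 0.55 without an own leading gene). These naming limits were set after seeing the data. Free RNA was not subtracted. A pair under 10% of the level in the leading class was described as possible free RNA.

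UMIs were summed per class and library and scaled to 1000000 UMIs of the class (CPM). Poisson, binomial and ratio intervals are exact (Clopper-Pearson for ratios and shares, 95%), and log2 ratios had 0.5 added to each sum. For thinned shares, cells with at least 2000 UMIs were thinned to 2000 UMIs and shallower cells were left out. The size rule stands with its results. On simulated data for 9891 Kupffer and 4245 monocyte genes, 200 genes of each class were changed, some 3-fold and the rest 1.5-fold. They were drawn from genes with more UMIs and a larger share of cells than the rule requires. Class sums varied by counting error only, so changes in the sparsest pairs or held by few cells were not simulated. The rule recovered 100% of the genes changed 3-fold. It called 0% and 5% of genes changed 1.5-fold and 0 of 9691 and 9 of 4045 unchanged genes.

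All 36 members were accounted for. Between libraries, members past the size rule were named, otherwise the 2 with the most UMIs in the class, and further members given there as values were chosen after their values were seen. Genes of other lists were named when past the rule, otherwise the 2 with the most UMIs, except for an item that is not reported here. The members and lists were chosen with earlier results of these data known. Positions came from GENCODE vM21 on GRCm38. Alternatives changed the scaling, filters, doublets, clustering, cluster weights and the size rule.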

Additional observations from a re-analysis of the deposited data

Results flagged for a closer look

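Ccl4, Ccl5 and Cxcl10 had ratios of the knockout-labelled to the wild-type library on opposite sides of 1 in different classes, each at least 1.5-fold with an interval excluding 1. Ccl4 was higher in monocytes (2.08) and in stellate cells and fibroblasts (1.97) and lower in B cells (0.555). In monocytes 5 cells held 80.1% and 57.5% of the Ccl4 UMIs. The shares were 75.4% and 55.0% in stellate cells and fibroblasts, and 54.5% and 43.8% in B cells. With each cell weighted equally the log2 ratio of Ccl4 in monocytes was -0.079. Ccl5 was higher in Kupffer cells (1.93) and T cells (1.68) and lower in conventional dendritic cells (0.260). Cxcl10 was higher in Kupffer cells (1.69) and T cells (1.53) and lower in NK cells and ILC1 (0.490), where 23 of the 40 wild-type UMIs came from 1 cell and the log2 ratio was 0.11 without the cell with the most UMIs in each library. Several of these pairs were under 10% of the level in the leading class, the limit set for possible free RNA. They were Ccl4 in stellate cells and fibroblasts and in B cells, and Ccl5 in Kupffer cells and conventional dendritic cells. The same held for Cxcl10 in T cells and in NK cells and ILC1. Ccl4 in monocytes, Ccl5 in T cells and Cxcl10 in Kupffer cells were above that limit. The part of free RNA and the differences between classes were not tested.

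Clusters without a name held members above the level of each named class in the compared libraries. Cluster 28, led by Rspo3, Vwf and Edn1 among others, had Ackr3 at 156 CPM over both libraries (84 and 76 cells). Cluster 14.3, with Kupffer and dendritic markers together (18 and 12 cells), had Ccl2 at 492 CPM, Ccl7 at 605 CPM, Ccl12 at 227 CPM and Cxcl16 at 392 CPM. Cluster 14.4, led by Mpo and Prtn3 among others (10 and 13 cells, with a high doublet score), had Ccl3 at 1174 CPM, from 45 and 362 UMIs in the knockout-labelled and the wild-type library.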

How the results depend on the processing

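No paired analysis was possible because each genotype has 1 library. The count of member and class pairs called higher, 8, was 5 with each cell weighted equally, with at most 10% mitochondrial UMIs, with doublet calls kept and at resolution 1.5, 4 with chemokine genes allowed in clustering, 2 with each library clustered alone, 15 at a fold of 1.5 and 4 with possible free RNA left out. The count called lower, 3, was 6 with each cell weighted equally, 5 with at most 10% mitochondrial UMIs, at resolution 1.5 and with each library clustered alone, 11 with at least 20 UMIs and no minimum share, 8 at a fold of 1.5, 7 with classes of at least 40 cells and 1 with possible free RNA left out. The 32 members with the same leading class ranged from 29 to 33. Ccr2 in NK cells and ILC1 was called in each setting (ratios 2.04 to 2.26), and Cxcl9 in Kupffer cells (2.03 to 2.71) in each but the one without possible free RNA, which removes it by construction. In conventional dendritic cells Ccl5 (0.244 to 0.306) and Ccr7 (0.334 to 0.482) had no call with each library clustered alone, where the class had 84 knockout-labelled cells and was not compared, and Ccl5 none without possible free RNA; in the other settings both were called. The remaining 7 calls were each lost in at least 1 setting where their class was compared. Direction turned for Cxcl10 in NK cells and ILC1 without the cell with the most UMIs (log2 ratio 0.11), for Cxcl16 and Ccl4 in monocytes with each cell weighted equally (-0.10 and -0.079), and for Ccl3 in stellate cells and fibroblasts with doublet calls kept (-0.122), at resolution 1.5 (-0.005) and with each library clustered alone (-1.314); the cause was not tested. The alternatives with classes of at least 40 cells, without possible free RNA and without the cell with the most UMIs were chosen after seeing the data. Sparse pairs were left out: 127 of 324 had both 50 UMIs and a UMI in 5% of the cells of a library.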

Other observations

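Some chemokine transcripts were held by very few cells, which a class average does not show. In the wild-type library 1 conventional dendritic cell carried 120 of the 167 Ccl17 UMIs of its class, and in the knockout-labelled library 79 of 254 came from 1 cell. Of the 133 wild-type Cxcl13 UMIs in stellate cells and fibroblasts 91 came from 1 cell. Kupffer Cxcl2 was the opposite case, with 0.755% and 1.18% of its UMIs in the cell that held the most.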
